A study of Mus musculus with 12 samples.

Results

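Total and newly made RNA of 10 genes of the endoplasmic reticulum (ER), of 17419 genes in the table, was followed in NIH-3T3 cells, an immortalised line of mouse fibroblasts. The genes were taken by symbol, and all 10 were found. Of these, 7 encode chaperones and folding enzymes of the ER (Hspa5, Hsp90b1, Calr, Canx, Pdia3, Pdia4 and Pdia6), and 3 encode regulators and effectors of the response that adjusts folding capacity (Xbp1, Herpud1 and Dnajb9). Wild-type cells were given 800 µM 4-thiouridine (4sU) for 15, 30, 60, 90 or 120 min or were left without it (no4sU). There were 2 libraries in each of the 6 groups, replicates A and B, so that 10 of 12 libraries were labelled. 4sU is a uridine analogue that is built into RNA made during labelling, and iodoacetamide treatment lets the sequencer read it as C, so that new reads can be told from older ones. The series title states that the experiment addressed how labelling duration biases quantification. No stress or inhibitor was named in the labels, so the comparisons are between labelling durations and not between stressed and resting cells.

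Proteins bound for secretion or for membranes fold in the ER. Hspa5 (BiP), the HSP70 of this compartment, and Hsp90b1 (GRP94), its HSP90, hold unfolded chains. Calreticulin (Calr) and calnexin (Canx) are lectins that retain glycoproteins until they are folded, and the protein disulfide isomerases Pdia3, Pdia4 and Pdia6 form and rearrange disulfide bonds. When unfolded proteins accumulate, the unfolded protein response raises transcription of these genes through ATF6 and through XBP1, a transcription factor whose mRNA is spliced by the sensor IRE1. Herpud1 is a membrane protein that takes part in degradation from the ER, and Dnajb9 (ERdj4) is a J-domain cochaperone of BiP. ATF6 and XBP1 are known to act at the ER stress response element (ERSE), which is CCAAT and CCACG with 9 bases of any kind between them, and at a shorter form, ERSE-II, which is ATTGG and CCACG with 1 base of any kind between them.

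The elements found in the promoters of the members are printed first, as a description. They are known elements of the response to which the members belong, so their presence here is not independent evidence. RefSeq promoter windows (GRCm38.p6, 250 bases before to 50 bases after the start) were matched for 10 of 10 members. On both strands, an exact ERSE was present in 5 of the 10 and in 0.119% of all promoters (39 of 32851). All 5 were chaperone genes, and Hsp90b1 had a pair of sites. An exact ERSE-II was present in 1 of the 10, Herpud1, and in 0.0365% of all promoters (12). The core of the XBP1 element, TGACGTGG, was in 0 of the 10 windows and in 0.676% of all. Matches are given 5′ to 3′ on the strand of the gene, with 5 bases on either side. Capitals mark the fixed letters, and CGTGG with ATTGG marks an element on the opposite strand.
Hspa5, chr2:34772020-34772048, plus strand: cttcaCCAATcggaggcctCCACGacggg
Hsp90b1, chr10:86705633-86705661, minus strand: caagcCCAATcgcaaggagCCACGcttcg
Hsp90b1, chr10:86705528-86705556, minus strand: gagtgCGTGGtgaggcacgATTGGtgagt
Calr, chr8:84847070-84847098, minus strand: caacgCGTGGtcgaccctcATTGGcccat
Canx, chr11:50325795-50325823, minus strand: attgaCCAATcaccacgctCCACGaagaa
Pdia6, chr12:17266486-17266514, plus strand: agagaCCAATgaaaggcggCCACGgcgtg
Herpud1, chr8:94386372-94386392, plus strand: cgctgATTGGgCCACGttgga

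Relative to the RefSeq start, the element of Hspa5 lay at -65 to -47, those of Hsp90b1 at -212 to -194 and -107 to -89, that of Calr at -162 to -144, that of Canx at -145 to -127, that of Pdia6 at -98 to -80 and the ERSE-II of Herpud1 at -52 to -42. The single letter N of the ERSE-II in Herpud1 is a G. The wider promoter of Herpud1 is shown because this gene combined the highest new-to-total ratio of the members at 120 min with the shorter element. Its 250 bases before the start, chr8:94386179-94386428 on the plus strand, carry the ERSE-II in capitals.
Herpud1: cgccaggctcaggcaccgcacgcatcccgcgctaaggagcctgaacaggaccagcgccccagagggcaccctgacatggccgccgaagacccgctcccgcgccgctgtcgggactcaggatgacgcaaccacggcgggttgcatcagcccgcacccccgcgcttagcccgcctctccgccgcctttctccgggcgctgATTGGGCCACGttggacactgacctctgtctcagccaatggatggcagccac

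The short pieces of these elements were common. A CCAAT box was in 9 of 10 members and in 37.4% of all promoters, and CCACG was in 8 of 10 members and in 32.8%. These pieces also count inside the longer elements. A match describes letters only, and no binding was measured here.

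Across the series, 9917026 to 13739380 reads were counted per library. The cells expressed the fibroblast markers: 8 of 8 were in the table, with a summed level of 15780 to 19420 CPM (counts scaled to library size) per library. Of the epithelial markers 2 of 4 were in the table, and their sum was between 0 and 0.582 CPM, that of the blood marker Ptprc between 0 and 0.271 CPM and that of the endothelial markers between 0.750 and 1.70 CPM. The no4sU libraries A and B stood further apart from each other than other replicates, with an SD over genes of their log2 difference of 0.21 beside 0.11 to 0.12, so comparisons with them are given with and without each. The labels do not say whether A and B came from separate cultures, so p-values measure the spread between these libraries, which may be technical.

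The members were abundant as a class and unequal among themselves. Together they took 0.743% to 0.816% of all reads of a library, or 76160 to 111500 reads. The 7 chaperones summed to 7142 to 8247 CPM per library, and the 3 regulators to 115.9 to 159.6 CPM. Per kilobase of the gene length in the table, which allows levels of different genes to be compared, Calr was highest at 812 ± 6.93 CPM per kb in the 15 min libraries (SD, n = 2) and Dnajb9 lowest at 10.3 ± 0.879. Between them came Hsp90b1 at 538 ± 18.5, Hspa5 at 352 ± 25.7, Pdia3 at 344 ± 17.3, Canx at 258 ± 1.91, Pdia6 at 175 ± 7.85, Pdia4 at 79.4 ± 5.02, Xbp1 at 32.7 ± 0.354 and Herpud1 at 29.8 ± 1.19 CPM per kb. Hspa5 and Pdia3 did not differ beyond the spread of their libraries.

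The classes lay far apart in the share of new RNA. The new-to-total ratio (NTR) estimates which share of the transcripts of a gene arose while 4sU was present, deposited by the authors as a posterior maximum with a 90% interval. After 120 min the median NTR over the 3 regulators was 83.2% ± 1.03 (SD, n = 2), while over the 7 chaperones it was 9.24% ± 1.03. The median over the 9065 genes that averaged 100 reads or more per library was 35.4% ± 0.523, between the classes. The regulators were above the chaperones in 21 of 21 pairs of genes in each of the 10 labelled libraries. The 90% intervals of a regulator and a chaperone lay apart in 21 of 21 pairs in all 8 libraries from 30 min on, in 20 pairs in the 15 min replicate A library and in 19 in replicate B. The members were chosen with results in view and are not replicates, so no p is given for this contrast.

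**Figure D1:**
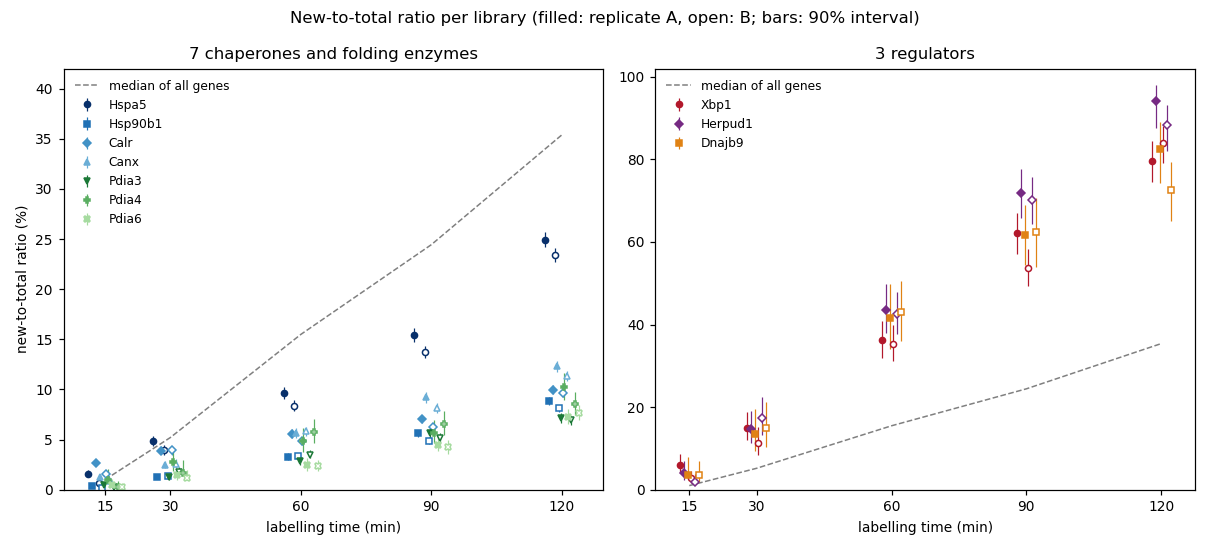
New-to-total ratio in percent (y axis, with different ranges in the panels) against labelling time in min (x axis) for the chaperones (left) and regulators (right). Filled points are replicate A, open points replicate B, bars the 90% interval, and points are shifted sideways to be seen. The dashed line is the median over 9065 genes. At 120 min the chaperones lie between 6.92% and 24.9% and the regulators between 72.6% and 94.2%.

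Over time the classes moved apart. The regulators' median NTR was 3.43% ± 0.948 (15 min), 14.8% ± 0.170 (30 min), 42.1% ± 0.728 (60 min) and 62.3% ± 0.240 (90 min). The corresponding chaperone medians were 0.660% ± 0.495, 2.14% ± 0.481, 4.83% ± 0.0141 and 5.97% ± 0.396. The difference between the medians was therefore 2.77 ± 0.453 percentage points at 15 min, 12.6 ± 0.651 (30 min), 37.3 ± 0.743 (60 min), 56.4 ± 0.156 (90 min) and 74.0 ± 2.06 (120 min). At every duration the difference was several times the SD of the 2 libraries.

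Herpud1, the ER membrane protein of degradation, had the highest NTR at 120 min. In replicates A and B it was 4.10% and 1.78% (15 min), 14.7% and 17.4% (30 min), 43.6% and 42.6% (60 min), 72.0% and 70.2% (90 min), and 94.2% and 88.2% (120 min). Both libraries of each duration lay above both of the duration before. At 120 min this gene stood at the 95.3 and 91.5 percentile of all genes in A and B. Pre-existing RNA thus made up the smallest share of Herpud1 reads among the members.

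Xbp1, the transcription factor, had NTRs of 5.97% and 2.76% (15 min), 15.0% and 11.3% (30 min), 36.2% and 35.4% (60 min), 62.2% and 53.7% (90 min), and 79.7% and 83.9% (120 min). Dnajb9, the cochaperone of BiP, had 3.53% and 3.64%, 13.5% and 14.9%, 41.6% and 43.0%, 61.7% and 62.5%, and 82.5% and 72.6% in the same order. The libraries of Dnajb9 and Xbp1 overlapped at 120 min, and so did their 90% intervals. Herpud1 was above Xbp1 in both libraries, with intervals apart in 1 of the 2.

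Hspa5 stood apart from the other chaperones. Its NTR in A and B was 1.59% and 0.680% (15 min), 4.86% and 3.92% (30 min), 9.62% and 8.39% (60 min), 15.4% and 13.7% (90 min), and 24.9% and 23.4% (120 min). At 120 min its 90% intervals were apart from those of Canx, the next lower gene (12.3% and 11.3%), and from those of Dnajb9, the next higher, in both libraries. BiP mRNA was thus below the median of all genes, at the 33.0 and 31.1 percentile, while the other 6 chaperones lay between the 0.993 and 8.04 percentile.

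Among the remaining chaperones the order at 120 min was tight, after NTRs between 0.16% and 2.7% in the 15 min libraries. Pdia3 had 7.12% and 6.92% in A and B, Pdia6 7.26% and 7.66%, Hsp90b1 8.87% and 8.12%, Pdia4 10.2% and 8.51%, and Calr 9.96% and 9.65%. The values of Hsp90b1, Pdia4 and Calr overlapped between neighbours. Calr and Canx were the only neighbours in this group with intervals apart in both libraries. Pdia3 and Pdia6, a pair of disulfide isomerases, were at or below the 1.70 percentile of all genes in both libraries.

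Calr changed its place with labelling time. At 15 min its NTR was 2.7% and 1.58%, the highest of the 7 chaperones in both libraries and at the 77.1 and 77.4 percentile of all genes. At 30 min it was 3.90% and 3.93% (36.4 and 35.6 percentile), at 60 min 5.59% and 4.82% (8.94 and 5.55), at 90 min 7.03% and 6.25% (3.88 and 3.51), and after 120 min it stood at the 4.20 and 3.84 percentile. From 15 to 120 min the other chaperones also moved down in rank, Hsp90b1 from the 18.8 and 25.8 percentile to 2.7 and 2.16. The regulators stayed between the 80.8 and 95.3 percentile at every duration.

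The apparent half-life puts these values on a scale of time. It is the labelling time multiplied by ln 2 and divided by -ln(1 - NTR), computed where the NTR was between 0.01 and 0.99, and it assumes a constant level. At 120 min it was 34.1 ± 6.80 min for Herpud1, 48.8 ± 4.70 min for Xbp1 and 56.0 ± 11.7 min for Dnajb9 (SD, n = 2). For Hspa5 it was 301 ± 15.9 min, for Canx 663 ± 41.5 min, for Calr 806 ± 19.0 min, for Pdia4 853 ± 116 min, for Hsp90b1 939 ± 61.3 min, for Pdia6 1074 ± 42.4 min and for Pdia3 1143 ± 24.0 min. The median over all genes was 193.8 min in replicate A and 201.5 min in B. The regulators were thus below and all 7 chaperones above it.

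**Figure D2:**
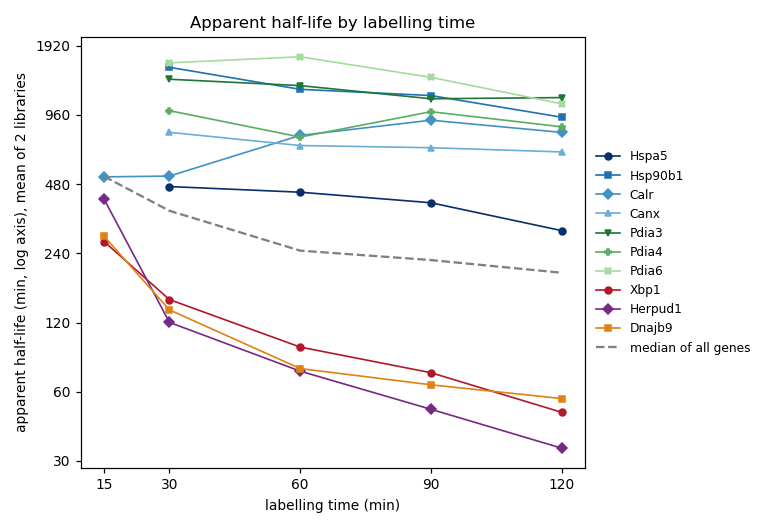
Apparent half-life in min (y axis, log scale, mean of the 2 libraries) against labelling time in min (x axis) for the 10 members, with the median over all genes dashed. A mean is drawn only where both libraries had an NTR between 0.01 and 0.99. Herpud1, Xbp1 and Dnajb9 fall at each step, and Calr lies higher from 60 min on than at 30 min.

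The half-life read from the same gene depended on the duration used. From 30 to 120 min the apparent half-life of Herpud1 went from 120 ± 15.7 to 34.1 ± 6.80 min, a ratio of 0.284, that of Xbp1 from 151 ± 32.7 to 48.8 ± 4.70 min, a ratio of 0.323, and that of Dnajb9 from 136 ± 10.3 to 56.0 ± 11.7 min, a ratio of 0.411. The median ratio over 7865 genes was 0.471. For 6 chaperones the ratio was between 0.606 (Hsp90b1) and 0.851 (Pdia4). Calr alone of the members had a ratio above 1, at 1.55, with 521 ± 2.83 min at 30 min and 806 ± 19.0 min at 120 min. Such a ratio was found in 7.29% of genes, and Calr was at the 98.3 percentile. From 60 to 120 min its ratio was 1.03, and that of Pdia4 was 1.11, with overlapping libraries in both cases.

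Multiplying the NTR by the level splits each gene into new and pre-existing RNA. New RNA of the 7 chaperones summed to 74.8 ± 28.3 CPM at 15 min, 199 ± 0.566 (30 min), 381 ± 2.97 (60 min), 611 ± 32.0 (90 min) and 953 ± 37.8 (120 min) (SD, n = 2). The 3 regulators together gave 5.62 ± 2.33, 21.9 ± 1.30, 57.3 ± 2.65, 84.8 ± 0.99 and 101 ± 1.97 CPM. In absolute terms more new chaperone RNA than new regulator RNA was therefore counted at every duration, although the share of new reads was much lower.

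Hspa5 supplied a growing part of the new chaperone RNA. Its share of it was 18.7% ± 2.61 (15 min), 26.9% ± 3.24 (30 min), 29.9% ± 1.05 (60 min), 31.9% ± 1.12 (90 min) and 33.2% ± 0.481 (120 min), while its share of the total chaperone level was 17.4% ± 0.672 (15 min) and 15.9% ± 0.347 (120 min). For Calr the direction was opposite, from 50.8% ± 0.856 of new chaperone RNA at 15 min to 34.8% ± 1.12, 24.5% ± 1.87, 20.9% ± 0.00707 and 20.6% ± 0.431 at the later durations. The 15 min shares rest on summed new RNA of 94.8 CPM in A and 54.8 CPM in B. Some NTRs behind them were near 0, such as 0.16% for Hsp90b1 in B. The SD of a share does not include the uncertainty of the NTRs. Calr gave the most new RNA of the 7 in the 15 and 30 min libraries, and Hspa5 in all 6 libraries from 60 min on.

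**Figure D3:**
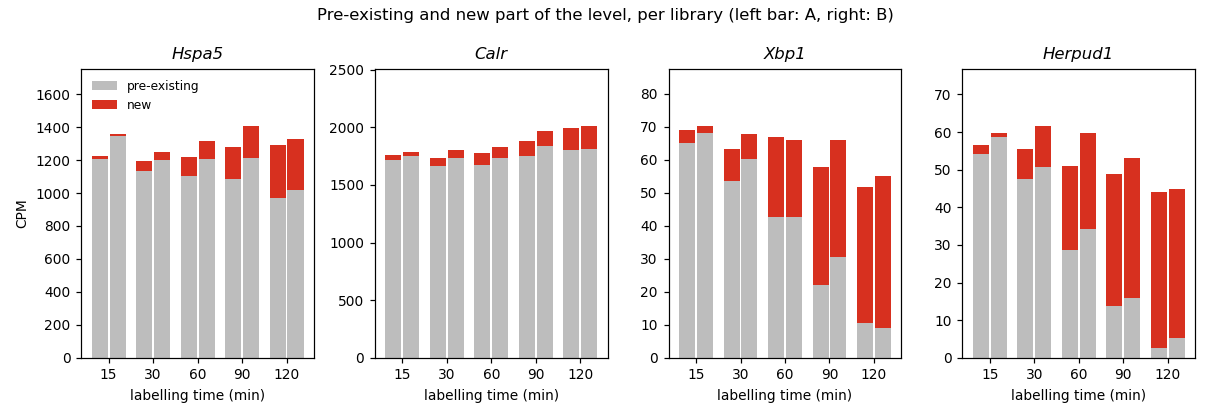
Pre-existing RNA (grey) and new RNA (red) in CPM (y axis, from 0, with a range of its own in each panel) against labelling time in min (x axis) for Hspa5, Calr, Xbp1 and Herpud1, with replicate A as the left and B as the right bar. Pre-existing RNA of Herpud1 goes from 56.4 CPM at 15 min to 3.93 CPM at 120 min, and that of Calr is 1734 and 1806 CPM.

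Pre-existing RNA of the regulators at 120 min was 6.98% to 19.9% of its 15 min mean. For Herpud1 it was 54.1 and 58.7 CPM in the 15 min libraries A and B and 2.57 and 5.29 CPM in the 120 min libraries, so that 6.98% of the 15 min mean was left. Xbp1 went from 64.9 and 68.1 to 10.47 and 8.86 CPM (14.5% left), and Dnajb9 from 22.9 and 25.8 to 3.55 and 6.11 CPM (19.9% left). The median over all genes was 64.9% left. Hspa5 kept 77.8% of its pre-existing RNA, from 1204 and 1348 to 968.5 and 1018 CPM, and the libraries of the 15 and 120 min groups did not overlap. The other 6 chaperones were at 97.8% to 108% of their 15 min value, where CPM are relative to all reads of a library.

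By the group means, new RNA grew less steeply in the regulators, although Xbp1 and Pdia4 were close. Between 60 and 120 min, mean new RNA of Herpud1 rose from 23.8 ± 2.33 to 40.6 ± 1.32 CPM, a ratio of 1.70, that of Dnajb9 from 9.60 ± 0.932 to 16.4 ± 0.382 CPM, a ratio of 1.71, and that of Xbp1 from 23.8 ± 0.622 to 43.7 ± 3.64 CPM, a ratio of 1.84. The chaperone ratios were between 1.87 (Pdia4) and 3.42 (Pdia6), with 2.77 for Hspa5 and 2.10 for Calr. Over 9065 genes the median ratio was 2.14. All 3 regulators were thus below the median of all genes, as were Pdia4 and Calr.

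Total levels shifted with labelling time in opposite directions in the 2 classes. In a fit of labelling time over the 10 labelled libraries (edgeR quasi-likelihood, 11526 genes, adjusted p under 0.05), 6 of the 7 chaperones rose and 3 of the 3 regulators fell. Over all genes tested, 18.3% were called higher and 19.5% lower, together 37.8%, so a call in this fit was common. The median slope was 0.10 log2 per hour over the 7 chaperones, -0.20 over the 3 regulators and 0.00 over all genes. In an alternative, the new part of each count was multiplied by 1/(1 - d), with d the share per library that removes the relation of NTR and fold change over all genes. With labelled reads scaled up in this way, 0 of the 10 were called, beside 652 of all genes called higher and 848 lower. The median slopes were then -0.01 over the chaperones and -0.04 over the regulators. Taken against 15 min, d was 34.1% in the 120 min replicate A library and 35.6% in B. The scaling removes by its construction the part of a change that follows the NTR.

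The slopes of the rising genes were small. Pdia3 rose by 0.12 ± 0.02 log2 per hour (SE; edgeR adjusted p = 1.05e-06), Calr and Hsp90b1 each by 0.11 ± 0.02, Pdia6 by 0.10 ± 0.02, Canx by 0.08 ± 0.02 and Pdia4 by 0.08 ± 0.02 (edgeR adjusted p = 0.00599), or 5.53% to 8.76% per hour. Hspa5 had a slope of 0.04 ± 0.02 (edgeR adjusted p = 0.131) and did not pass the test. Without the 15 min replicate B library it did, with a slope of 0.07. Among the regulators Herpud1 fell by 0.22 ± 0.04 log2 per hour (edgeR adjusted p = 8.08e-06), Dnajb9 by 0.20 ± 0.06 (edgeR adjusted p = 0.00312) and Xbp1 by 0.19 ± 0.03 (edgeR adjusted p = 2.58e-05), or 12.1% to 14.0% per hour.

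The levels per library were as follows for Pdia3 and Xbp1. Pdia3 had 918.8 and 986.8 CPM in A and B at 15 min, 964.1 and 976.4 (30 min), 973.5 and 979.9 (60 min), 1041 and 1054 (90 min), and 1095 and 1117 (120 min), beside 943.5 and 970.3 without 4sU. The 90 and 120 min libraries lay above all others, and the 15 and 30 min libraries overlapped with those without 4sU. Xbp1 had 69.0 and 70.1 CPM at 15 min, 63.1 and 67.7 (30 min), 66.9 and 66.1 (60 min), 57.8 and 66.0 (90 min), and 51.6 and 55.1 (120 min), beside 69.2 and 66.0 without 4sU. Only its 120 min libraries were below all others. A fit without the 120 min libraries was added after seeing the data. In it Xbp1 (slope -0.11), Pdia4 (0.08) and Pdia6 (0.07) no longer passed and 6 of the 10 members did. Calls over all genes went from 4362 to 1654.

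**Figure D4:**
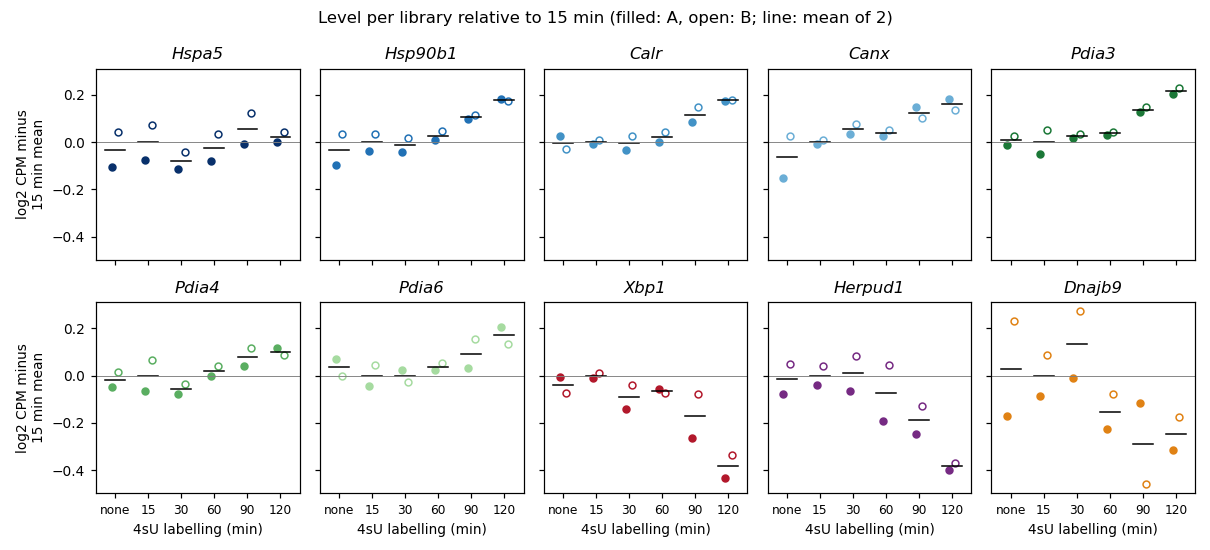
Level of each member per library, as log2 CPM minus the mean of the 15 min libraries (y axis), against 4sU labelling in min (x axis, none for no4sU). Filled points are replicate A, open points replicate B, and lines the mean of both. For Pdia3 and Hsp90b1 both 120 min points lie above those of all other durations, and for Xbp1 and Herpud1 both lie below.

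Herpud1 had 56.4 and 59.7 CPM at 15 min, 55.6 and 61.5 (30 min), 50.9 and 59.8 (60 min), 48.9 and 53.0 (90 min), and 44.1 and 44.9 (120 min), beside 55.1 and 60.0 without 4sU. Its 120 min libraries were below all others. Dnajb9, the lowest of the members, had 23.7 and 26.8 CPM at 15 min, 25.0 and 30.5 (30 min), 21.5 and 23.9 (60 min), 23.2 and 18.3 (90 min), and 20.3 and 22.3 (120 min), beside 22.3 and 29.6 without 4sU. Its 90 and 120 min libraries lay below those of 15 and 30 min, and those of 60, 90 and 120 min overlapped. Hspa5 had 1224 and 1357 CPM at 15 min, 1192 and 1251 (30 min), 1221 and 1318 (60 min), 1280 and 1405 (90 min), and 1290 and 1329 (120 min), beside 1197 and 1328 without 4sU. In Hspa5 replicate B was above A in each of the 6 groups.

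The remaining chaperones are given for 15 and 120 min. Hsp90b1 had 1690 and 1775 CPM in the 15 min libraries A and B and 1965 and 1952 CPM in the 120 min libraries, Calr 1762 and 1784 against 1998 and 2008, Canx 1098 and 1109 against 1253 and 1212, and Pdia6 369.4 and 393.5 against 439.7 and 418.8. Pdia4, the lowest of the 7, had 181.9 and 198.9 against 206.0 and 202.0 CPM. In these 5 genes the libraries of the longest labelling lay above those of the shortest without overlap. How many of all genes separated in this way was not counted, and Pdia4 was not called in that comparison (edgeR adjusted p = 0.234).

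At 120 against 15 min, 5 chaperones rose and 2 regulators fell (edgeR, 11564 genes, all 12 libraries in the fit), beside 7.93% of all genes called higher and 11.3% called lower, or 19.3% in all. The median log2 fold change was 0.17 over the chaperones, -0.38 over the regulators and 0.01 over all genes tested. Pdia3 rose by 0.22 ± 0.05 (SE; edgeR adjusted p = 0.00412), Hsp90b1 and Calr each by 0.18 ± 0.05, Pdia6 by 0.17 ± 0.06 and Canx by 0.16 ± 0.05, or 11.7% to 16.1%. Herpud1 fell by 0.38 ± 0.09 (edgeR adjusted p = 0.00459) and Xbp1 by 0.38 ± 0.07 (edgeR adjusted p = 0.00186), or 23.3% and 23.1%. Pdia4 at 0.10 ± 0.06, Hspa5 at 0.02 ± 0.06 and Dnajb9 at -0.24 ± 0.14 (edgeR adjusted p = 0.224) were not called.

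These calls depended on single libraries and on the scaling. DESeq2 did not call Canx (adjusted p = 0.0540), and it called 1439 of all genes. A fit of the 4 libraries compared also called Dnajb9 (edgeR adjusted p = 0.0455), beside 3818 of all genes. The edgeR fit of all libraries called 2228. Without the 15 min replicate A library, or without the 120 min replicate B library, Xbp1 and Herpud1 were called and 0 chaperones, while calls over all genes went from 2228 to 657 and 705. The log2 fold changes of the 5 chaperones were then 0.14 (Hsp90b1), 0.17 (Calr), 0.15 (Canx), 0.16 (Pdia3) and 0.13 (Pdia6) without 15 min A, and 0.18, 0.17, 0.18, 0.20 and 0.20 in the same order without 120 min B. Without 120 min replicate A, Pdia3, Xbp1 and Herpud1 were called, and without 15 min replicate B, Pdia3, Hsp90b1 and Xbp1, beside 1017 and 1037 of all genes. With library size alone in place of TMM scaling, 1 chaperone, Pdia3, and 2 regulators were called, and the calls over all genes went from 917 higher and 1311 lower to 426 and 1867. In the fit of labelling time the same change moved them from 2111 and 2251 to 1172 and 3031, with 8 members called. With the labelled reads scaled up, 0 members and 241 of all genes were called, and Herpud1 was at -0.08 and Xbp1 at -0.12.

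Against no4sU, which shares the 120 min libraries with the comparison above, 4 chaperones were higher at 120 min and 2 regulators lower (14.2% of all genes called, 5.43% higher and 8.78% lower). Canx rose by 0.22 ± 0.05, Pdia3 by 0.21 ± 0.05, Hsp90b1 by 0.21 ± 0.05 and Calr by 0.18 ± 0.05, with edgeR adjusted p between 0.00713 and 0.0155. Herpud1 fell by 0.37 ± 0.09 (edgeR adjusted p = 0.00724) and Xbp1 by 0.34 ± 0.07 (edgeR adjusted p = 0.00562). Without no4sU replicate A, Pdia6 (0.17) and Dnajb9 (-0.47) were called too, 8 members in all, while calls over all genes went from 1643 to 3533. Without replicate B, 6 members and 1899 of all genes were called. Without 120 min replicate A only Pdia3 was called, and without 120 min replicate B only Xbp1, beside 452 and 466 of all genes. Log2 fold changes without A were 0.21 for Hsp90b1, 0.19 for Calr, 0.20 for Canx and -0.35 for Herpud1. With library size alone the calls over all genes went from 628 higher and 1015 lower to 203 and 1684, and 3 members were called. With labelled reads scaled up (d of 30.5% and 32.1% in A and B), 0 members and 189 of all genes were called. With only the no4sU and 120 min libraries in the fit, 0 members and 171 of all genes were called, at log2 fold changes of 0.21 for Hsp90b1, 0.22 for Canx, 0.21 for Pdia3, 0.18 for Calr, -0.34 for Xbp1 and -0.37 for Herpud1.

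At 15, 30, 60 and 90 min against no4sU, 0 of the 10 members were called by edgeR or by DESeq2. The share of all genes called by edgeR was 0.0% for 15 and 30 min, 0.0173% for 60 min (0.00865% in each direction) and 1.39% for 90 min (0.45% higher and 0.943% lower). At an unadjusted p under 0.05, 0 members passed in the 15 and 60 min comparisons, 1 in that of 30 min and 5 in that of 90 min. Of the 11564 genes tested, 618 (15 min), 670 (30 min), 895 (60 min) and 1869 (90 min) passed at that threshold. At 90 min Canx was closest, at 0.18 ± 0.05 (edgeR adjusted p = 0.0919). Without no4sU replicate B, calls over all genes went from 0, 0, 2 and 161 in order of duration to 1336, 1363, 1213 and 1214. In that setting Canx was called higher at all of these durations (0.15, 0.21, 0.19 and 0.28 in order of duration), joined by Hsp90b1 at 60 and 90 min and by Pdia3 and Hspa5 (90 min). Without no4sU replicate A, Calr (0.14) and Dnajb9 (-0.51) were called at 90 min, beside 1442 of all genes, and 0 members at the shorter durations.

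Over the 10 members the slope with labelling time followed the NTR at 120 min with a Pearson r of -0.995 and a Spearman rho of -0.894. Over 9065 genes these were -0.740 and -0.778. The points share their libraries, and the 120 min counts enter both measures. The members fall into classes far apart in NTR and were chosen with results in view. Their r is therefore not comparable with that over all genes. Within the 7 chaperones r was -0.891 and rho -0.721, with Hspa5 holding the highest NTR and the lowest slope.

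Other genes of the ER were read from 4 lists written with earlier results of these data known, as a description. Their counts stand beside 18.3% of all genes called higher and 19.5% lower with labelling time, and 7.93% and 11.3% at 120 against 15 min. Of 23 further folding enzymes and cochaperones tested, 18 rose and 0 fell with labelling time, and at 120 against 15 min 7 rose and 0 fell. Their median slope was 0.09 log2 per hour and their median NTR at 120 min, over the 22 that averaged 100 reads or more, was 14.2%. Ppib, the cyclophilin B of the ER, had 157.4 and 150.8 CPM at 15 min and 187.0 and 185.3 CPM at 120 min, a rise of 0.27 ± 0.06 log2 (edgeR adjusted p = 0.00478) with an NTR of 8.39% ± 0.120. Pdia5, a further disulfide isomerase, rose by 0.24 ± 0.08 (edgeR adjusted p = 0.0451) and had the lowest NTR of the list at 6.96% ± 1.35. Mogs, the glucosidase that starts trimming of N-glycans, had the highest at 56.4% ± 5.48, the only gene of the list above all 7 chaperones. Over all genes, 6170 of 9065 lay above all 7.

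Of 14 genes of degradation from the ER, 2 rose and 2 fell with labelling time, and at 120 against 15 min 1 rose and 1 fell. These counts were near the shares over all genes (18.3% and 19.5%, and 7.93% and 11.3%). Os9, a lectin that recognises misfolded glycoproteins, rose by 0.28 ± 0.07 (edgeR adjusted p = 0.00869) and had an NTR of 9.01% ± 2.37 (120 min). Herpud2, the paralogue of Herpud1, fell by 0.32 ± 0.10 (edgeR adjusted p = 0.0315), with 31.2 and 28.6 CPM at 15 min, 24.6 and 23.4 CPM at 120 min and an NTR of 53.1% ± 3.86. Syvn1, the ubiquitin ligase HRD1, had the highest NTR of the list at 67.2% ± 3.91, and at 120 against 15 min it was at -0.20 ± 0.08 (edgeR adjusted p = 0.0825). The median NTR of the 14 genes was 26.7%.

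Sensors and signal transducers mostly had a higher share of new RNA than the ER chaperones. Of 17 entries tested (16 symbols, Ddit3 being listed under 2 IDs), 6 fell and 2 rose with labelling time, and 5 fell and 2 rose at 120 against 15 min, beside 19.5% lower and 18.3% higher, and 11.3% and 7.93%, over all genes. Of the 15 that averaged 100 reads or more, 13 had an NTR at 120 min above every chaperone, beside 6170 of 9065 genes. The median over the 15 was 65.3%. Trib3, a pseudokinase induced in the response, fell by 0.61 ± 0.14 (edgeR adjusted p = 0.00568), from 19.5 and 23.0 CPM to 12.04 and 15.4 CPM, with an NTR of 91.6% ± 11.9. Ern1, which encodes the sensor IRE1 that splices Xbp1 mRNA, fell by 0.34 ± 0.11 (edgeR adjusted p = 0.0307) with an NTR of 65.8% ± 1.73. Ppp1r15a (GADD34), which directs dephosphorylation of eIF2α, had the highest NTR of the list at 99.2% ± 1.09, yet its level was at -0.07 ± 0.06 (edgeR adjusted p = 0.480), with 72.5 and 69.1 CPM at 15 min and 66.3 and 68.6 CPM at 120 min.

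The 2 genes of this list that rose had low NTRs. Tmbim6 (BAX inhibitor-1) rose by 0.20 ± 0.05 (edgeR adjusted p = 0.00903) with the lowest NTR of the list, 14.6% ± 0.00707, and Atf6b, the relative of ATF6, rose by 0.22 ± 0.07 (edgeR adjusted p = 0.0261) with 15.5% ± 2.73. Both NTRs lay above those of 6 ER chaperones and below that of Hspa5.

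Chaperones of the cytosol and mitochondria served as a comparison. Of 15 tested, 11 rose and 2 fell with labelling time, and 4 rose and 1 fell at 120 against 15 min. Over all genes 18.3% rose and 19.5% fell, and 7.93% and 11.3%, so that the falls were near the background. Cct3 and Cct2, subunits of the chaperonin TRiC, rose by 0.18 ± 0.05 (edgeR adjusted p = 0.0164) and 0.15 ± 0.05 (edgeR adjusted p = 0.0438), with NTRs of 17.9% ± 0.368 and 17.6% ± 0.417. Hspe1, the mitochondrial HSP10, had the lowest NTR at 14.3% ± 1.37, above all ER chaperones but Hspa5. Dnajb4, a J-domain cochaperone of cytosolic HSP70, fell by 0.50 ± 0.10 (edgeR adjusted p = 0.00157) and had the highest NTR at 92.9% ± 4.94. The median over the list was 21.5%, beside 9.37% for the 7 ER chaperones and 81.8% for the 3 regulators on the same measure.

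The scaling moved these lists as it moved the members. Over all genes, library size alone gave 1172 called higher and 3031 lower with labelling time. Labelled reads scaled up gave 652 and 848. With library size alone, 11 folding genes rose and 1 fell with labelling time, 2 degradation genes rose and 4 fell, 2 sensors rose and 7 fell, and 7 cytosolic or mitochondrial chaperones rose and 2 fell. With the labelled reads scaled up, 1 folding gene rose and 1 fell, 0 and 2 of the degradation genes, 2 and 0 of the sensors, and 1 and 0 of the cytosolic or mitochondrial chaperones. Of the genes named from the lists, Mogs (0.30, edgeR adjusted p = 0.0234) and Ppp1r15a (0.28, edgeR adjusted p = 0.0240) were called higher in that scaling at 120 against 15 min, Ppp1r15a with the opposite sign to the fit of the counts as deposited, and none of the others was called.

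Genes with the most similar NTR over the 10 labelled libraries were ranked among 9065 by the root mean square difference. Nearest to Xbp1 were Ston1 (1.97 percentage points), Mfsd14a (2.09) and Mark2 (2.12), and nearest to Herpud1 were Setd1b (2.27), Bcar1 (2.3) and Runx2 (2.31). Dnajb9 had Zfand2a at 2.07, Ccnl2 at 2.76 and Tlnrd1 at 2.91 percentage points. For Hspa5 the distances were shorter, with Sptbn1 at 0.853, Agpat3 at 0.902 and Pbdc1 at 0.962 percentage points.

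The 3′ untranslated regions of the members, read from GENCODE M21 on GRCm38, differed in AU-rich pentamers, a motif found in many short-lived mRNAs. ATTTA occurred 10 times in Hspa5 (1434 bases), 7 times in Canx (2321 bases), 4 times in Dnajb9 (1395 bases), 3 times in Xbp1 (989 bases), 2 times each in Calr (797 bases), Pdia3 (988 bases) and Pdia4 (347 bases), once in Hsp90b1 (262 bases), and in neither Pdia6 (764 bases) nor Herpud1 (622 bases). The median over 8938 genes was 2, in a median length of 1125 bases, and 70.3% had at least 1. The heptamer TATTTAT, which contains ATTTA, was found in Canx alone, 2 times, and in 30.5% of genes. Herpud1, with the highest NTR of the members at 120 min, held no ATTTA. Hspa5 and Canx, with the highest NTRs of the chaperones, held the most, but also had the longest regions of the members. The counts were not corrected for length, and the longest region of the principal transcripts of a gene was used. A relation to the NTR was not tested.

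Gene locations bear on what the counts can hold. On GRCm38 the members lie at chr2:34771970-34777547 (Hspa5, plus strand), chr10:86690209-86705509 (Hsp90b1, minus), chr8:84841850-84846934 (Calr, minus), chr11:50293961-50325673 (Canx, minus), chr2:121413775-121438687 (Pdia3, plus), chr6:47796141-47813430 (Pdia4, minus), chr12:17266545-17284770 (Pdia6, plus), chr11:5520659-5525893 (Xbp1, plus), chr8:94386438-94395377 (Herpud1, plus) and chr12:44205559-44210326 (Dnajb9, minus). Exons of 5 members overlap exons of other genes in this annotation: Hsp90b1 those of 1810014B01Rik on the opposite strand and of Gm15344 and Gm25745, Pdia3 those of Catsper2 on the opposite strand, Pdia4 those of Mir704, Pdia6 those of Atp6v1c2 on the opposite strand and Dnajb9 those of Mir5627 on the opposite strand. The sources used here do not say whether counting used the strand. Where exons overlap, the counts of these members may therefore include reads of their neighbours.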

How the data were processed

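RNA of 12 NIH-3T3 libraries in 6 groups of 2 was analysed. Groups and letters came from the sample titles. The authors deposited a table of 17419 genes with estimated counts per library, not scaled, of which 20.4% were not whole (tolerance 1e-06) and which were rounded here for the tests. The authors deposited the NTR as a fraction: the posterior maximum, the mean and, as a 90% interval, the 0.05 and 0.95 quantiles, per the file headers. The submitters' processing notes name cutadapt, Bowtie2 2.3.0 and STAR 2.7.10b. The sources used here do not name the counting tool, genome build, annotation or strand use. Whether reads with many conversions failed to align cannot be read from counts. Gene length and IDs came from the deposited table, and locations from GENCODE M21 (GRCm38) by Ensembl ID.

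The count tests used R 4.3.3 and edgeR 4.0.16 (filterByExpr, TMM factors 0.970 to 1.02, quasi-likelihood, common biological coefficient of variation 4.44%, Benjamini-Hochberg over all genes tested, threshold 0.05), in a fit of all 12 libraries and, for labelling time in hours, of the 10 labelled ones. The fits were tested on simulated data. DESeq2 1.42.0 was the other tool. CPM used TMM library sizes over the genes kept. Other steps used pandas 2.3.3, numpy 2.4.6 and matplotlib 3.10.9 in Python 3.11.15. Alternatives were other scalings and filters, a replicate block, leaving out each library, fewer groups in the fit, and scaling up labelled reads. A trend up to 90 min and a trend with no4sU as time 0 were added after seeing the data.

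The members and lists were chosen with earlier results of these data known. Named are all 10 members, from each list up to 2 called genes with the largest rise and fall at 120 against 15 min and those with the highest and lowest NTR at 120 min, and the 3 genes nearest in NTR to Xbp1, Herpud1, Dnajb9 and Hspa5. Other lists held 25 folding, 17 degradation, 16 sensor and 16 cytosolic or mitochondrial symbols. Protein ends were not analysed here.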

Additional observations from a re-analysis of the deposited data

How the results depend on the processing

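Scaling up the labelled reads gave 0 members called at 120 against 15 min, at 120 min against no4sU and with labelling time. This scaling left 241, 189 and 1500 of all genes called in that order. It turned the sign of Hspa5 (-0.0688, -0.0267 and -0.0118 in that order), Pdia4 (-0.0951, -0.0532 and -0.0345) and Pdia6 (-0.0382, -0.0454 and -0.0218), and in the first and last also of Hsp90b1 (-0.0242 and -0.00842), Calr (-0.0151 and -0.00352) and Canx (-0.0170 and -0.0164). By its construction it removes the relation of change and NTR. Library size alone gave 3 members in both comparisons of 120 min, a summed level of the members at 120 min of 8129 CPM in place of 8362, and for Hspa5 -0.0358 against 15 min and -0.0140 against no4sU. A fit of only the groups compared gave 0 against no4sU. Leaving out 1 library gave 2 to 3 members at 120 against 15 min, 1 to 8 against no4sU and 9 to 10 with labelling time. With labelling time, the slope fits without 1 library called 3418 to 4372 of all genes, beside 4362 with all labelled libraries. In the comparisons of groups, the lone library left in a group is assumed to vary like the other groups. Hspa5 then ranged from -0.0518 to 0.0965 against 15 min and from -0.0204 to 0.129 against no4sU. For 90 min against no4sU, no filter gave 1 member, and leaving out a no4sU library gave 2 to 4, for 60 min 0 to 2, and for 30 and 15 min 0 to 1. The cause was not tested.

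The difference of regulators and chaperones in NTR was 3.34 percentage points for 15 min from posterior means, and 11.98 for 30 min and 35.5 for 60 min from means over members.

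With the replicate letter as a block, 7 members were called at 120 against 15 min, 6 against no4sU and 9 with labelling time, the same counts as without it, and 0 for 15 to 90 min. Over all genes, calls at 120 against 15 min were 2315 with the block and 2228 without it. Those at 120 min against no4sU were 1737 and 1643, and those with labelling time 4447 and 4362. The labels do not say that a letter marks a shared culture or day. Over 15 pairs of groups the A minus B differences correlated at -0.127 to 0.148, with 3 above 0.1. Dnajb9 had the lowest counts of the members, so its changes were the least precisely measured.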
